A study of Mus musculus with 52 samples.

Results

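Transcripts of 9 genes of megakaryocytes and platelets were followed in single daughter cells of mouse erythroid progenitors. The genes were taken as a list of symbols, Itga2b, F2r, Gp9, Gp1bb, Gp5, Vwf, Pf4, Treml1 and Rab27b, and all 9 were found among the 49466 genes of the deposited counts. The cells were the progeny of burst-forming unit-erythroid (BFU-E) founders, early progenitors committed to the red cell lineage, from C57/Bl6J fetal liver at embryonic day 14.5. Treated founders were kept alone in wells with 100 nM dexamethasone, a synthetic glucocorticoid, and untreated founders in the same medium without it, for 16 hours and 1 division. Both daughters were then sequenced separately, from 13 dexamethasone and 13 untreated pairs, 52 libraries in all. All founders had passed a depletion with antibodies that included one against CD41, the product of Itga2b, and a sort on Kit, CD71 and CD24. The labels name no animal, so founders may share an embryo or a litter, and each pair counted as 1 replicate.

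Megakaryocytes, the cells that shed platelets, and erythroid cells arise from a shared progenitor and use several of the same transcription factors, Gata1 among them. Platelets stop bleeding by binding von Willebrand factor through the glycoprotein Ib-IX-V complex, by responding to thrombin through protease-activated receptors, and by binding fibrinogen through the integrin of which CD41 is a subunit. They also release stored proteins such as platelet factor 4 from granules. Transcripts of these genes, F2r less so in mouse, are therefore commonly read as marks of the megakaryocyte lineage, which BFU-E cells are not assigned to.

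Libraries with at least 100000 counts were used throughout, and a gene was called detected in a library at 10 CPM (the counts of a gene scaled to the total of its library) or more. These were 26 dexamethasone and 22 untreated libraries, with 210383 to 5606500 counts and 3886 to 9473 detected genes each. The 4 libraries under that total were all untreated and belonged to pairs 4, 7 and 12, which left 13 dexamethasone and 10 untreated complete pairs. The label of the cells held in most but not all libraries. Gata1, the erythroid and megakaryocyte transcription factor gene, was detected in 39 libraries, 21 dexamethasone and 18 untreated. The other 9 libraries, 5 dexamethasone and 4 untreated, had Gata1 at 0 to 6.10 CPM and Mpo, which encodes a granule enzyme of neutrophils and monocytes, at 4621 to 23921 CPM. They go against the label. Correlations with globin, differences between daughters, founder calls and treatment fold changes are given with and without them. Levels in CPM per treatment, detection shares and counts of pairs include them.

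The start regions of 4 of the genes are shown because Itga2b and F2r were detected together, Gp5 was the other widely detected member, and Pf4 was the member that was never detected. Each sequence is the RefSeq promoter of build GRCm38.p6, 250 bases before to 50 after the annotated start, written 5′ to 3′ on the strand of the gene. Capitals mark GATAA, a short form of the site bound by GATA factors, and GGAAG, a short form of the site bound by ETS factors such as Fli1, read on both strands (TTATC and CTTCC on the other), with 0 matches that overlap. Itga2b lies at chr11:102469834-102470133 on the minus strand, F2r at chr13:95618417-95618716 on the minus strand, Gp5 at chr16:30310732-30311031 on the minus strand and Pf4 at chr5:90772185-90772484 on the plus strand.
Itga2b: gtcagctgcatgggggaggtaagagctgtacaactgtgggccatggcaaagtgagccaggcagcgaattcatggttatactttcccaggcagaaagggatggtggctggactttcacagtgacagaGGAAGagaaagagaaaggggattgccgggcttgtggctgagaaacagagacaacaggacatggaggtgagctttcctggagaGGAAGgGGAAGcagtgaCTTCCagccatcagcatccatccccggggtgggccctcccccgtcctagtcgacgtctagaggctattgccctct
F2r: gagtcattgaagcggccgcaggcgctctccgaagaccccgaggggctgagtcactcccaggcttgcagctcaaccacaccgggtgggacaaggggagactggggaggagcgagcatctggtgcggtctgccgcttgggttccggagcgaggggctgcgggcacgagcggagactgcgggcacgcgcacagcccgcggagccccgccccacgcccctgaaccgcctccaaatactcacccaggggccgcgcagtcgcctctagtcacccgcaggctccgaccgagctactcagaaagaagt
Gp5: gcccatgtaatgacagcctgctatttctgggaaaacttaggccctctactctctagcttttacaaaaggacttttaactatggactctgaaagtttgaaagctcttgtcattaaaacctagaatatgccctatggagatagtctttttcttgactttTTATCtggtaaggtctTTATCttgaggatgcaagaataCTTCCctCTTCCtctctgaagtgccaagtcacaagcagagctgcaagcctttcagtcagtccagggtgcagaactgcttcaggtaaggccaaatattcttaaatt
Pf4: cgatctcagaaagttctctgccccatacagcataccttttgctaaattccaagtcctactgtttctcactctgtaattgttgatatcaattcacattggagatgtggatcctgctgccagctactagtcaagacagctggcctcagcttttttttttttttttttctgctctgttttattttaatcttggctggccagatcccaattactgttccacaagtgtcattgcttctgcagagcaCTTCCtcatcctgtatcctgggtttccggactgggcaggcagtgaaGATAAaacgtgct
The Itga2b window held 4 matches to GGAAG and 0 to GATAA, and the F2r window held 0 of either. Gp5 held 2 of each and Pf4 held 1 of each. RefSeq gave such a window for 7 of the 9 genes. GATAA was present in 3 of the 7 (Gp5, Gp9 and Pf4) and GGAAG in 6, all but F2r. Among 32851 promoters of the same length 25.4% held GATAA, 71.4% held GGAAG and 17.2% held both, so a match says little by itself. Itga2b and F2r thus shared neither motif in these windows, which says nothing of the factors themselves.

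Detection was common for the set and uneven among its genes. At least 1 member was detected in 38 of the 48 libraries, 20 of 26 with dexamethasone and 18 of 22 untreated. At least 3 members were detected in 17 libraries from 11 pairs, 10 libraries with dexamethasone and 7 untreated. Both counts lean on F2r, which was detected in 30 libraries, in 5 of them as the only member, and in all 17 with at least 3. The number of members per library was 0 in 10 libraries, 1 in 13, 2 in 8, 3 in 5, 4 in 7, 5 in 4 and 6 in 1. The library with 6 was cell 1 of untreated pair 5.

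**Figure D1:**
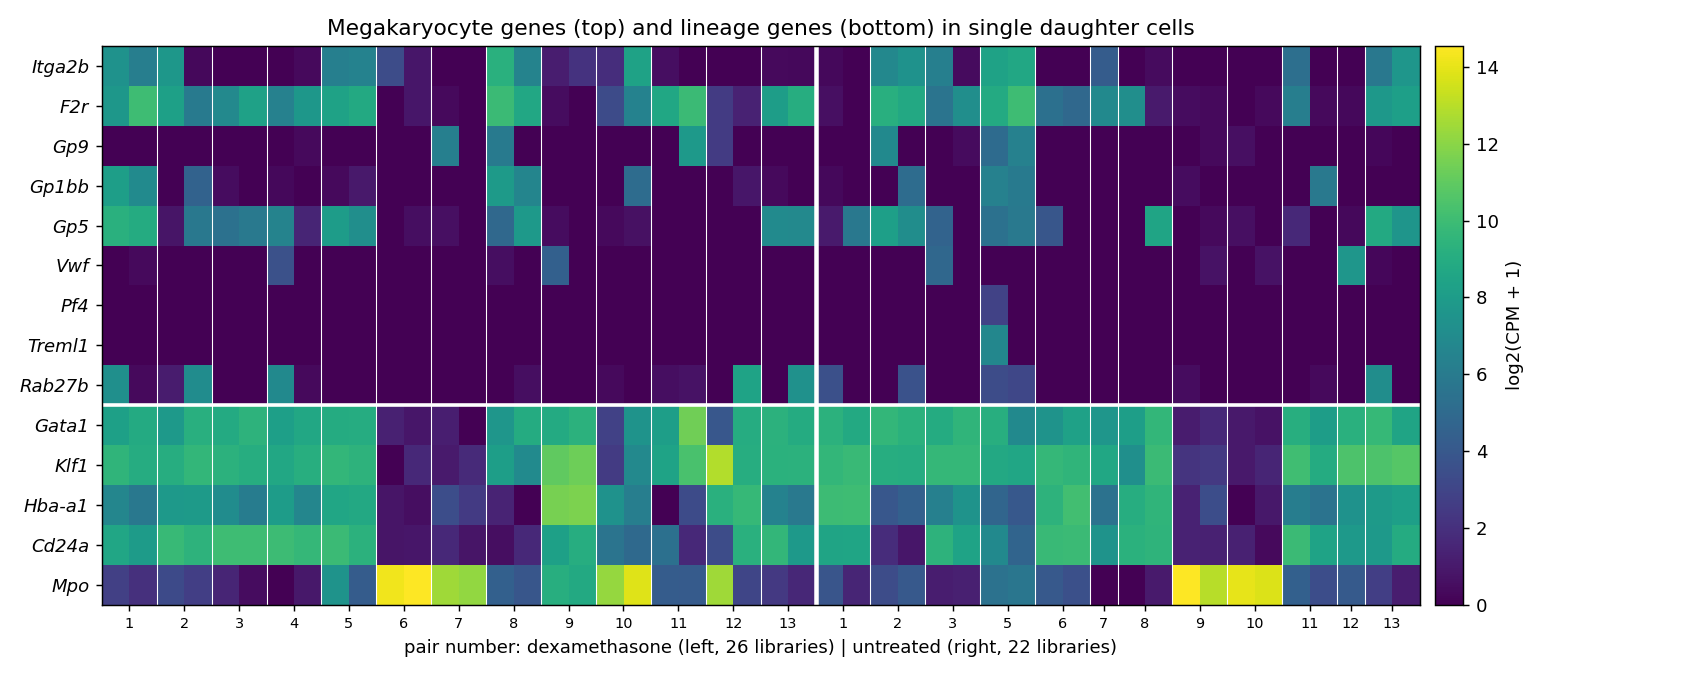
Levels of the 9 members (above the line) and of 5 lineage genes (below it) as log2(CPM + 1), coloured by the scale at the right, in 26 dexamethasone libraries (left) and 22 untreated libraries (right), with daughters of 1 founder side by side between thin lines. F2r and Gp5 are lit in most pairs with Gata1, Pf4 is dark in all but 1 library, and the 9 libraries with Mpo of 4621 CPM or more and Gata1 under 10 CPM are almost dark for the members.

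The first group of members is receptors for thrombin and for fibrinogen. F2r encodes the thrombin receptor PAR1, which serves on human platelets, whereas mouse platelets use PAR3 and PAR4. It is annotated on chromosome 13 from 95601803 to 95618487 on the minus strand (GRCm38, as all gene spans here). F2r was the most widely detected member, in 17 of 26 dexamethasone libraries and 13 of 22 untreated libraries. Its level ran from 0 to 1029 CPM with dexamethasone (median 161) and from 0 to 1039 CPM without (median 43.7). The ranges of both groups overlapped almost fully. The gap at the threshold was wide: libraries with F2r began at 29.6 CPM and held at least 27 reads of it, and those without it reached 8.85 CPM.

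Itga2b encodes integrin alpha IIb, CD41, the subunit that marks the megakaryocyte lineage and some early progenitors (chromosome 11 from 102453297 to 102470122, minus strand). It was detected in 8 of 26 dexamethasone and 9 of 22 untreated libraries. Its level ran from 0 to 604 CPM with dexamethasone (median 0.670) and from 0 to 430 CPM without (median 0.309). The highest library was cell 1 of dexamethasone pair 8, and the next were both cells of untreated pair 5, at 338 and 430 CPM. The depletion against CD41 acted on the protein at the surface of the founder before culture, and the transcript was read after it.

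The second group is the subunits of the von Willebrand factor receptor. Gp5 encodes glycoprotein V (chromosome 16 from 30307685 to 30310779, minus strand) and was detected in 12 of 26 dexamethasone and 10 of 22 untreated libraries, at up to 602 and 452 CPM. Gp1bb encodes the beta chain of glycoprotein Ib (chromosome 16 from 18620317 to 18622403, minus strand) and was detected in 6 dexamethasone and 4 untreated libraries, at up to 281 and 81.8 CPM. Of its 2087 exonic bases 1902 lie within exons of Sept5, a septin gene on the same strand, so its reads cannot be assigned with certainty. Sept5 itself reached 10 CPM in 1 library. Gp9 encodes glycoprotein IX (chromosome 6 from 87778072 to 87779768, plus strand) and was detected in 3 dexamethasone and 3 untreated libraries, at up to 225 and 118 CPM.

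Few cells held transcripts of all 3 subunit genes of the set, Gp5, Gp1bb and Gp9. These were detected together in 3 libraries, both cells of untreated pair 5 and cell 1 of dexamethasone pair 8. The alpha chain gene Gp1ba, from a wider list of 36 platelet genes, was detected in 1 dexamethasone and 6 untreated libraries. Of these 7 libraries 5 were among those with at least 3 members, 4 also had Gp1bb and 2 also had Gp9. Cell 1 of untreated pair 5, the only library with Treml1, was not among the 7. Libraries with Gp1ba and the other 3 subunit genes together were not counted. Gp1ba had a log2 fold change of -2.96 ± 1.78 (SE) with dexamethasone and was not called by edgeR (adjusted p = 0.9997).

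Vwf, Pf4 and Treml1 were rarely detected. Vwf, which encodes von Willebrand factor (chromosome 6 from 125546774 to 125686679, plus strand), was detected in 2 dexamethasone libraries at 11.1 and 21.2 CPM and in 2 untreated libraries at 27.9 and 197 CPM. Endothelial cells also make it. In those 4 libraries 7 of the 8 endothelial markers were under 10 CPM, with Cdh5, Kdr and Emcn at 0 in every library, and the eighth, Egfl7, was detected in 39 of the 48 libraries. The summed level of the 8 markers was 0 to 145 CPM in the 4 libraries and 0 to 5480 CPM in the other 44.

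Pf4, which encodes platelet factor 4 (chromosome 5 from 90772435 to 90773383, plus strand), reached 10 CPM in 0 of 26 dexamethasone and 0 of 22 untreated libraries, with exact 95% upper limits of 13.2% and 15.4%. Its 4 reads, 6.17 CPM, all lay in cell 1 of untreated pair 5. Treml1, which encodes a receptor stored in platelet granules (chromosome 17 from 48359916 to 48367176, plus strand), was detected in that same library alone, with 69 reads or 106 CPM. These intervals and limits cover counting error only.

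Rab27b encodes a small GTPase needed for granule formation and secretion (chromosome 18 from 69979131 to 70141605, minus strand), and other secretory cells use it too. It was detected in 5 dexamethasone libraries at 119 to 351 CPM and in 3 untreated libraries at 10.6, 11.6 and 137 CPM. A median of 149 CPM among the dexamethasone libraries with Rab27b stood against 11.6 CPM among the untreated ones, but those are 5 and 3 single cells. In the other libraries it did not exceed 9.26 CPM.

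Per kilobase of exon, which allows levels of different genes to be set side by side, F2r averaged 80.3 CPM per kb in the 39 libraries with Gata1 and Gp5 averaged 45.4. Gp9 at 15.4, Itga2b at 14.5 and Gp1bb at 12.8 CPM per kb followed. The Gp1bb value divides by all 2087 exonic bases, of which 1902 are shared with Sept5, so its place is uncertain. Rab27b at 2.63, Treml1 at 1.95, Vwf at 0.411 and Pf4 at 0.219 CPM per kb were far lower. Levels across cells varied from 0 to over 100 CPM for each of the first 5, so neighbours in this order do not differ beyond their spread.

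The members were mostly detected in cells with Gata1. Of the 39 libraries with Gata1, 37 had at least 1 member and 17 had at least 3. Of the 9 libraries without it, 1 had a member and 0 had 3. At 1 CPM, at 5 counts and after thinning, 3 of the 9 had a member, and 0 had 3 in each case. The 1 exception was Gp9 at 76.3 CPM in cell 1 of dexamethasone pair 7, which had Mpo at 5746 CPM. Conversely, cell 2 of dexamethasone pair 10 held transcripts of both kinds, with Mpo at 14623, Gata1 at 176, Itga2b at 331, F2r at 86.5 and Gp1bb at 33.7 CPM. Its sister had Mpo at 4843 CPM, Gata1 at 6.10 CPM and 0 members. Cell 1 of dexamethasone pair 12, the shallowest library used, had Gata1 at 14.3 CPM, Mpo at 5633 CPM and 0 members. Doublets were not called in these libraries.

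The cells with at least 3 members also held erythroid transcripts, though not all markers in every cell. In the 17 libraries with at least 3 members Gata1 ran from 119 to 870 CPM (median 487) and Klf1, the erythroid transcription factor gene, from 114 to 1643 CPM (median 529). All 17 had at least 3 of 14 erythroid markers at 10 CPM, as had 39 of the 48 libraries. The summed level of the 14 markers had a median of 4738 CPM in the 17 libraries and 5685 CPM in the other 31. Those 31 include the 9 libraries without Gata1, and Gata1 is itself 1 of the 14 markers. The median was not taken over libraries with Gata1 alone. Among the 14 markers Hba-a1 ran from 0 to 437 CPM and Cd24a from 0.434 to 1017 CPM in the 17 libraries. The library with 6 members had Hba-a1 at 26.2 CPM and Cd24a at 120 CPM. The 4 libraries with 5 members had Hba-a1 at 1.74, 14.8, 20.6 and 99.4 CPM. Their Cd24a, in the same order, was at 0.434, 24.7, 0.860 and 394 CPM. Of the 17 libraries 6 had at least 3 of 15 granulocyte and monocyte markers, against 18 of all 48, and 1 had at least 3 of 8 stem cell markers, the same 1 as in all 48. None of the 48 had 3 markers of mast cells, endothelium, macrophages, lymphoid cells or hepatocytes. The summed level of granulocyte and monocyte markers was 40.2 to 18974 CPM in the 17 libraries and 4.24 to 46977 CPM in the other 31. What part those markers play in the member counts was not tested.

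Among the libraries with Gata1, several members went with low adult globin. Hba-a1, an alpha globin gene, did not exceed 437 CPM in any library with at least 3 members (median 74.4 CPM), while it reached 3216 CPM elsewhere. Every library with Itga2b lay between 0 and 437 CPM of Hba-a1, and every library with Gp1bb between 0 and 247 CPM. F2r was found up to 1114 CPM and Gp5 up to 1053 CPM of Hba-a1. Rab27b was found up to 994 CPM (median 243) and Vwf up to 3052 CPM (median 213). The 10 libraries with 0 members, most of them without Gata1, had a median Hba-a1 of 3.06 CPM. Across the 39 libraries with Gata1, F2r and Hba-a1 were negatively correlated on the log2(CPM + 1) scale (Pearson r = -0.64, Spearman rho = -0.70). For Itga2b the values were r = -0.39 and rho = -0.41, for Gp1bb r = -0.48 and rho = -0.35, and for Gp5 r = -0.18 and rho = -0.16. F2r and the log2 library total gave r = 0.042 and rho = -0.11, and F2r and Klf1 gave r = -0.44 and rho = -0.49. Over all 48 libraries, those without Gata1 included, the values were r = -0.035 and rho = -0.14 for F2r with Hba-a1, and r = -0.11 for Itga2b, -0.22 for Gp1bb and 0.12 for Gp5 with Hba-a1. F2r with Klf1 turned to r = 0.46 there (rho = 0.085). These describe single cells that share founders and may share a sequencing run, which the labels do not name. Reads of Hba-a1 and its near-identical copy Hba-a2 cannot be split with certainty.

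**Figure D2:**
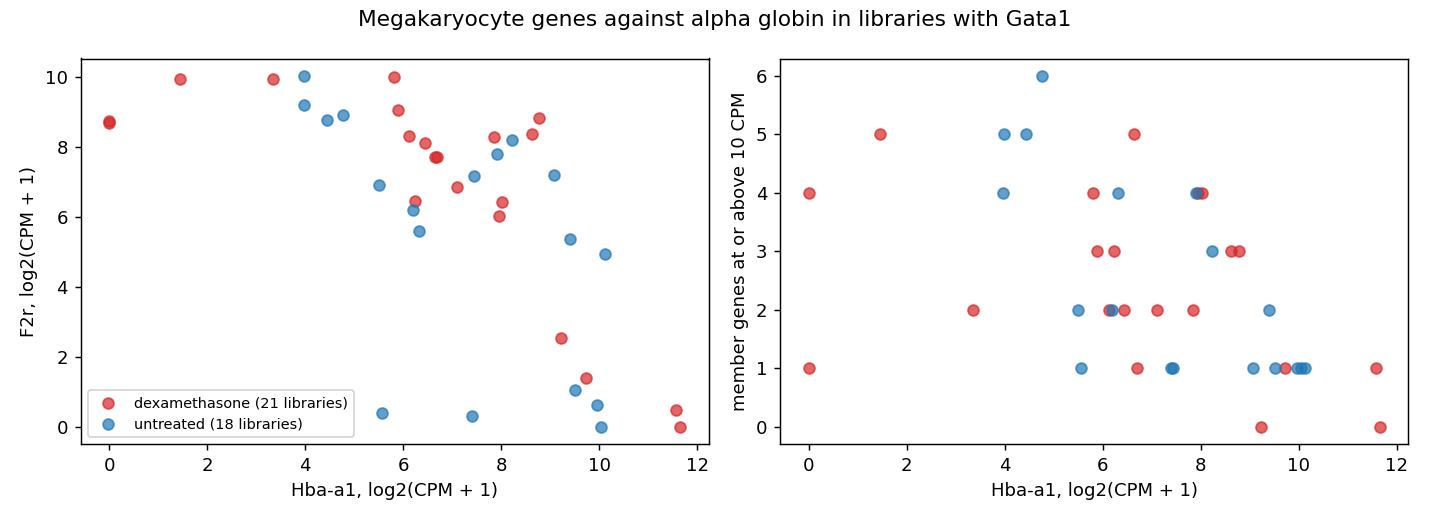
F2r as log2(CPM + 1) (left) and the number of members detected (right) against Hba-a1 as log2(CPM + 1), in the 21 dexamethasone and 18 untreated libraries with Gata1, 1 point per library. The libraries with at least 3 members all lie at Hba-a1 of 437 CPM or less.

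Gp9 was found at the low end of Cd24a as well. Cd24a encodes CD24, which was used in the sort of the founders. Its level in the 6 libraries with Gp9 was 0.434 to 120 CPM, with a median of 2.37, in cells of 5 pairs. Libraries with Gp5 had a Cd24a median of 445 CPM and libraries with F2r likewise 445 CPM, both with ranges from 0.434 to 1064 CPM. For Gp1bb the median was 75.6 CPM and for Itga2b 226 CPM. One of the 6 Gp9 libraries was the cell without Gata1.

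At 10 CPM Itga2b was detected only within the cells that had F2r. Under that threshold it also occurred without F2r: cell 1 of dexamethasone pair 6, which lacked Gata1, held 12 reads of Itga2b (9.43 CPM) and 0 of F2r. All 17 libraries with Itga2b also had F2r, which is 56.7% of the 30 libraries with F2r. Gp5 was accompanied by F2r in 20 of 22 libraries, or 66.7% of those with F2r, and by Itga2b in 13 of 22. Gp1bb was accompanied by F2r in 9, by Itga2b in 8 and by Gp5 in 8 of its 10 libraries. Gp9 had F2r beside it in 5 of 6 libraries and Itga2b in 4. Vwf had F2r beside it in 2 of its 4 libraries and Gp1bb or Gp9 in 0. For comparison, F2r was detected in 30, Gp5 in 22 and Itga2b in 17 of all 39 libraries with Gata1. Whether members were detected together more often than these shares give was not tested. After no member at all (10 libraries), the commonest combinations were F2r alone (5 libraries), F2r with Gp5 (4), Itga2b with F2r (3) and these 3 genes together (3). Across the 39 libraries with Gata1 the correlation of Itga2b with F2r was r = 0.53 (rho = 0.55), with Gp1bb r = 0.55 (rho = 0.40) and with Gp5 r = 0.42 (rho = 0.41).

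Other thrombin receptor genes went along with these cells. F2rl2, which encodes PAR3, was detected in 8 libraries, 4 with dexamethasone and 4 untreated, at 34.9 to 289 CPM. All 8 also had F2r and Gp5 and were among the 17 libraries with at least 3 members, and 7 had Itga2b. In 3 pairs both daughters had F2rl2 and in 2 pairs 1 daughter had it. F2rl3, which encodes PAR4, was detected in 3 libraries, 1 dexamethasone and 2 untreated, each with at least 3 members.

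Of the wider list of 36 platelet genes 21 reached 10 CPM in some library and 15 in none. The silent genes included Ppbp, Selp, Gp6, Clec1b and Thbs1, which encode granule proteins and surface receptors of mature platelets and had 0 reads in the 48 libraries. Tubb1, the platelet beta tubulin gene, did not exceed 0.305 CPM. The 5 genes of that list with the highest mean level were Fermt3 (integrin activation), Vamp8 (granule secretion), Rap1b (integrin signalling), Cd9 (a tetraspanin) and Lat (receptor signalling), detected in 44, 48, 38, 31 and 15 libraries. Of 14 regulators, all 14 were detected somewhere. Klf1, Gata1, Gfi1b, Nfe2 and Runx1 had the highest means and were detected in 35 to 39 libraries each. Fli1, an ETS factor gene of megakaryocytes, was detected in 10 dexamethasone and 10 untreated libraries, and 10 of these 20 had at least 3 members. It was found in 12 of the 39 libraries with Gata1 and in 8 of the 9 without. Gata2 was detected in 16 libraries, 9 with dexamethasone and 7 untreated, of which 9 had at least 3 members.

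Daughters of 1 founder often shared a member. Among the 23 complete pairs F2r was detected in both daughters of 13, in 1 daughter of 3 and in neither of 7. For Gp5 the counts were 8, 6 and 9 pairs, for Itga2b 6, 4 and 13, for Gp1bb 3, 4 and 16, and for Gp9 1, 4 and 18. Vwf was detected in 1 daughter of 3 pairs and in both of 0. Rab27b was detected in 1 daughter of 8 pairs and in both of 0 at 10 CPM. At 1 CPM it was in both daughters of 2 pairs, among them untreated pair 5 with 9.26 and 7.41 CPM. In the pair with the highest Rab27b, dexamethasone pair 12, cell 2 had 351 CPM and cell 1, a library of 210383 counts, had 0 reads. Over all members 31 of 64 detections in a pair were shared by both daughters. The number of members was equal in 7 of 23 pairs, within 1 in 19, and differed by at most 3. In 6 pairs both daughters had at least 3 members, namely dexamethasone pairs 1, 5 and 8 and untreated pairs 2, 5 and 13, and in 5 pairs 1 daughter did.

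**Figure D3:**
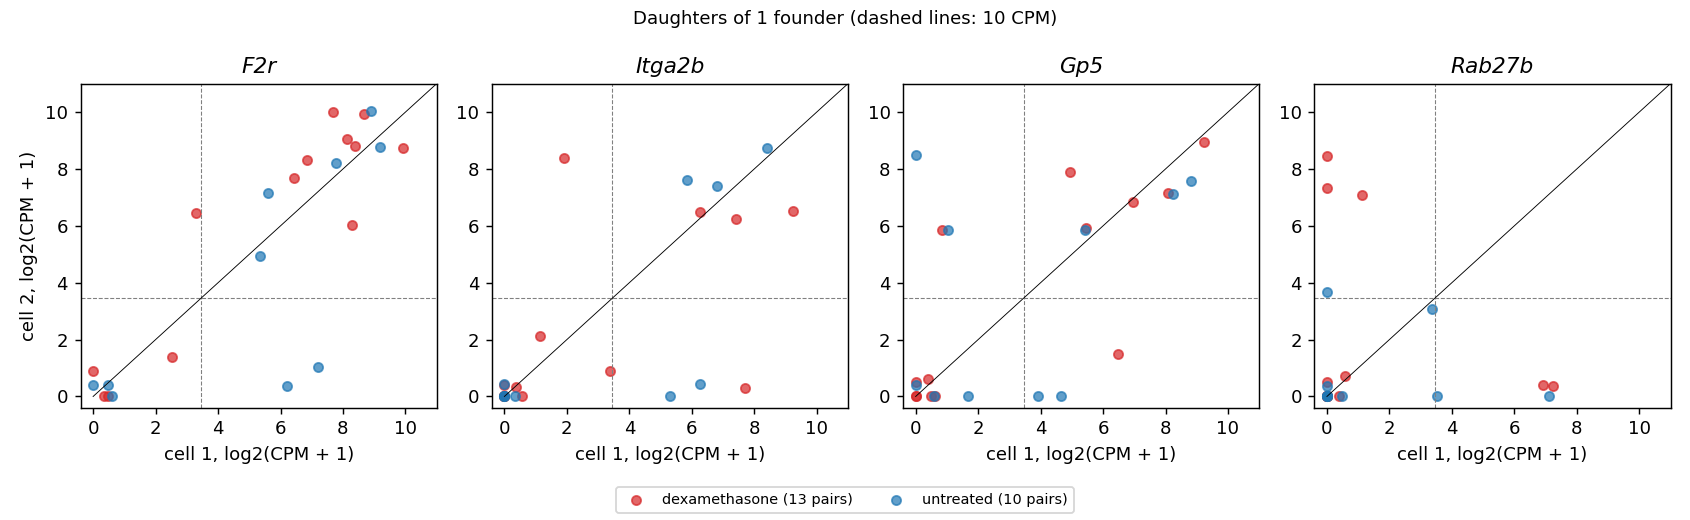
Level of F2r, Itga2b, Gp5 and Rab27b in cell 2 against cell 1 of the same founder, as log2(CPM + 1), for 13 dexamethasone and 10 untreated pairs, with the diagonal drawn and dashed lines at 10 CPM. F2r has 13 pairs at the upper right, where both daughters pass the threshold, and Rab27b has 0.

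The difference between daughters was set against the difference between cells of different founders under the same treatment, in log2(CPM + 1). For F2r it was 1.49 ± 1.60 within pairs (SD, n = 23 pairs) against 4.32 between founders. For Itga2b it was 1.61 ± 2.33 against 3.69, for Gp5 1.91 ± 2.29 against 3.98 and for Gp1bb 1.18 ± 1.93 against 2.45 (SD, n = 23 pairs each). Gp9 at 1.43 ± 2.58 against 1.67, Rab27b at 2.24 ± 3.10 against 2.26 and Vwf at 0.67 ± 1.47 against 0.64 differed as much within pairs as between founders. In the 18 pairs whose daughters both had Gata1, the values for F2r were 1.63 ± 1.69 within against 3.67 between, and for Itga2b 1.56 ± 2.27 against 3.92 (SD, n = 18 pairs each). There Gp5 was at 2.31 ± 2.45 against 4.07, Gp1bb at 1.19 ± 1.90 against 2.79, Gp9 at 1.43 ± 2.62 against 1.77, Rab27b at 2.82 ± 3.29 against 2.66 and Vwf at 0.78 ± 1.64 against 0.76 (SD, n = 18 pairs each).

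A test across all genes asked which transcripts differed between founders more than between daughters. With edgeR's quasi-likelihood test 243 of 10244 genes were called, which is 2.37%. Of the 9 members 6 passed the filter on low counts and 2 of these were called, F2r (F = 6.30, adjusted p = 0.000876) and Itga2b (F = 4.37, adjusted p = 0.0254). Calls of megakaryocyte genes in this test were known from earlier work on these data and are not separate support. Gp5 (adjusted p = 0.0699), Gp1bb (0.115), Gp9 (0.216) and Rab27b (0.222) were not called by edgeR. Limma-trend called 828 genes, which is 8.08%, and among them F2r (adjusted p = 1.50e-05), Itga2b (0.00341), Gp1bb (0.00413) and Gp5 (0.00580).

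The edgeR calls did not hold without the pairs in which a daughter lacked Gata1. There 167 of 9692 genes were called (1.72%), and the adjusted p was 0.0517 for Itga2b, whose F was 4.54 there, and 0.0828 for F2r, whose F fell to 3.85. Founders were also compared within an index column, the set of libraries that share a first index sequence. There edgeR called 67 of 10244 genes, F2r (adjusted p = 0.00721) and Itga2b (0.0390) among them.

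Of the wider list 13 genes could be tested for the founder effect and edgeR called 4, among them Vamp8 (adjusted p = 0.00681), Ptgs1 (0.0341) and Lat (0.0408). Ptgs1 encodes a cyclooxygenase that platelets use to make thromboxane. Without the pairs that lacked Gata1 edgeR called 1 of 11, Vamp8 (adjusted p = 0.00190). Over all complete pairs limma-trend did not call Vamp8 (adjusted p = 0.731) but called Lat (0.00229) and Ptgs1 (0.0160). Of the 14 regulators edgeR called Klf1 (adjusted p = 7.44e-06) and Gata1 (0.000412), and without those pairs Klf1 (0.00116) and Mafg (0.0420), a partner of Nfe2.

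The remaining comparison was of dexamethasone with no treatment. No member differed beyond the spread between founders. The intervals of the shares of libraries with a member overlapped between the groups. F2r was detected in 65.4% of libraries with dexamethasone (exact 95% binomial interval 44.3 to 82.8) against 59.1% untreated (36.4 to 79.3). For Itga2b the shares were 30.8% with dexamethasone (14.3 to 51.8) and 40.9% untreated (20.7 to 63.6), and for Gp5 46.2% with dexamethasone (26.6 to 66.6) and 45.5% untreated (24.4 to 67.8). At least 3 members were detected in 38.5% of dexamethasone libraries (20.2 to 59.4) and 31.8% of untreated libraries (13.9 to 54.9). The intervals take libraries as independent, although daughters share a founder, and are therefore too narrow.

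The level of F2r per pair was 5.71 ± 3.69 log2(CPM + 1) with dexamethasone (SD, n = 13) and 4.63 ± 3.57 untreated (SD, n = 10). Itga2b was at 2.68 ± 2.97 with dexamethasone and 2.88 ± 3.41 untreated, Gp5 at 3.41 ± 3.39 and 3.48 ± 2.92, and Gp1bb at 1.65 ± 2.70 and 1.21 ± 2.08 (SD, n = 13 and 10 pairs). Rab27b was at 1.58 ± 1.92 with dexamethasone and 1.08 ± 1.41 untreated, and Gp9 at 0.88 ± 1.46 and 1.00 ± 1.97 (SD, n = 13 and 10 pairs). In each of these 6 genes the groups overlapped from 0 or near 0 to the upper range.

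**Figure D4:**
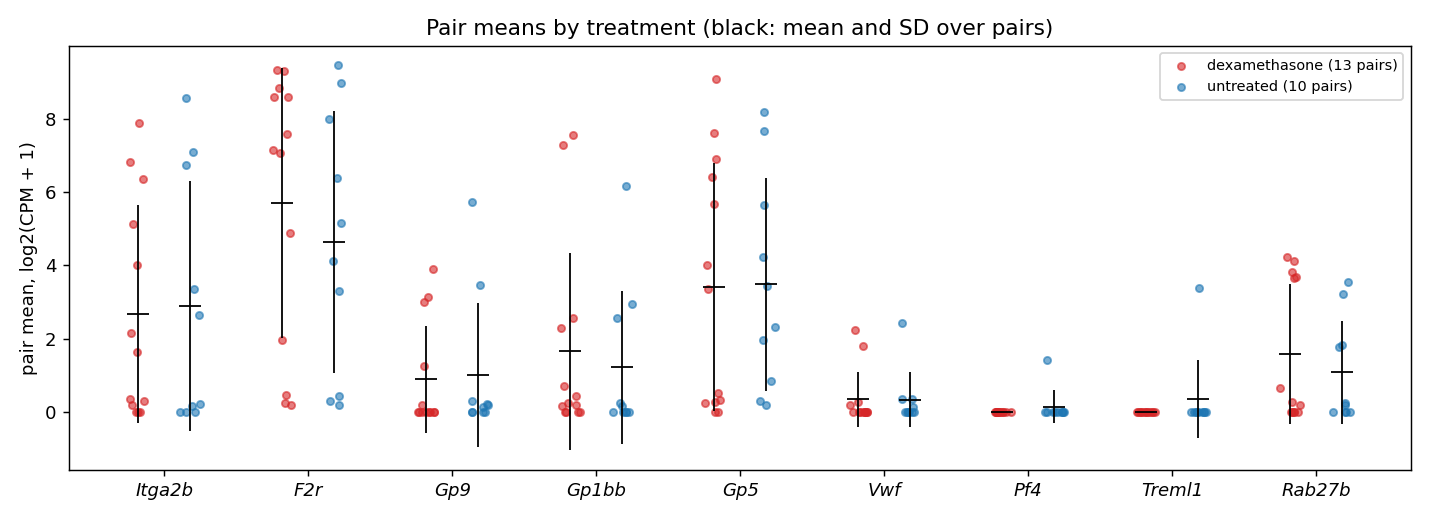
Mean log2(CPM + 1) of the daughters of each pair for the 9 members, with 13 dexamethasone pairs at the left and 10 untreated pairs at the right of each gene, 1 point per pair, and black bars for the mean and SD over pairs. The points of both groups overlap for each gene, for example for F2r with means of 5.71 and 4.63.

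On counts summed per pair edgeR called 0 of 10374 genes (0%), with 438 at an unadjusted p under 0.05. DESeq2 called 66 genes and limma-trend 0, and neither called a member. The members' log2 fold changes were 0.87 ± 1.16 for F2r, 0.014 ± 1.51 for Itga2b, 0.27 ± 1.30 for Gp5 and 1.63 ± 1.79 for Gp1bb (SE). For the others tested they were 1.14 ± 1.89 for Gp9, 2.57 ± 1.77 for Rab27b and 0.11 ± 1.52 for Vwf (SE), and all 7 had an adjusted p of 0.9997 by edgeR. The median over all genes tested was 0.073. Without the pairs in which a daughter lacked Gata1 the members' log2 fold changes were 0.85 ± 1.01 for F2r, -0.41 ± 1.57 for Itga2b, 0.30 ± 1.22 for Gp5, 1.49 ± 1.92 for Gp1bb, 0.77 ± 2.11 for Gp9, 2.78 ± 1.82 for Rab27b and 0.26 ± 1.74 for Vwf (SE), and edgeR called 0 genes, with 376 at an unadjusted p under 0.05. Pf4 and Treml1, each seen in 1 untreated library, did not pass the filter. With no filter, edgeR gave Treml1 an unadjusted p of 0.00323 (adjusted p = 0.0721) and Pf4 0.0175 (adjusted p = 0.118), each from the reads of that 1 library. Each standard error is over 1 log2 unit, so a 2-fold change in either direction was not detectable for any member in these pairs. Of the wider list 15 genes were tested and edgeR called 0, with 11 positive and 4 negative fold changes (median 0.42). Of the 14 regulators edgeR called 0, with 8 positive and 6 negative (median 0.16).

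Libraries of both treatments came in sets of index columns, and only column 6 held both. In columns 1 to 4 the log2 fold change was 0.32 ± 1.28 for F2r, -0.15 ± 1.81 for Itga2b and 3.03 ± 2.29 for Rab27b (SE), and in columns 5 to 7 it was 1.91 ± 2.10, -0.019 ± 2.64 and 2.65 ± 2.79 (SE). None was called by edgeR in either set. At least 3 members were detected in 8 of 16 dexamethasone and 5 of 13 untreated libraries of columns 1 to 4, and in 2 of 10 and 2 of 9 of columns 5 to 7. The libraries without Gata1 were 4 dexamethasone and 0 untreated in columns 1 to 4, and 1 and 4 in columns 5 to 7. Single columns and treatment cannot be told apart.

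For the 4 members detected in at least 10 libraries, the genes with the most similar pattern were ranked by Pearson correlation of log2(CPM + 1) over the 48 libraries among 10244 genes. Itga2b was most like Rab37 (r = 0.70), Muc13 (0.70) and Tmem127 (0.69). F2r was most like Plscr1 (0.77), the predicted gene Gm5530 (0.70), which never reached 10 CPM, and Top2a (0.68), the topoisomerase gene of dividing cells. Gp1bb was most like Nlrp6 (0.76), Gm15658 (0.73) and Dnah12 (0.69), the last 2 of them detected in 2 and 3 libraries. Gp5 was most like Gm15915 (0.65), Tm9sf1 (0.61) and Steap3 (0.60), a ferrireductase gene of erythroid cells. The 48 points share founders, depth and the split by Gata1, and the ranking was not made without the libraries lacking Gata1.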

How the data were processed

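RNA of single daughter cells was sequenced as polyadenylated transcripts. The deposited tables hold raw counts of reads per gene, 1 per treatment, with the same 49466 genes. STAR 2.4, featureCounts and build GRCm38 are named in the submitters' processing notes. The sources used here give no setting for strand or for reads over several genes, and no molecular identifiers are mentioned. Of the columns 0 were left unused, and 0 pairs of libraries were identical.

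CPM scaled counts to the library total. Treatments were compared on counts summed per pair with edgeR 4.0.16 in R 4.3.3 (TMM, glmQLFit and glmQLFTest, a gene needed 10 counts in 3 pairs). The founder effect used single libraries with 1 term per pair (a gene needed 5 counts in 4 libraries). Adjusted p-values are Benjamini-Hochberg over all genes tested, called under 0.05. A standard error is the fold change divided by the square root of F. DESeq2 1.42.0 and limma 3.58.1 were alternatives, and the edgeR fits were tested on simulated data. The spread between founders is the error in every p-value on treatment. Pair numbers are shared by both treatments in 10 complete pairs. The members, lists, thresholds and alternatives were chosen with earlier results of these data known. The text names the 9 members, 3 lineage genes, the 5 highest genes of each list, genes called by a test, and the 3 most similar genes of each member detected in at least 10 libraries. Of the genes called, 1 is not reported here. Other genes were named after their values were seen. Gene spans come from GENCODE M21 (GRCm38).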

Additional observations from a re-analysis of the deposited data

Results flagged for a closer look

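For 4 members 1 of the 10 complete untreated pairs stood far from the others, by its gap to the next pair relative to the whole range. The pair mean of Gp1bb was 6.17 log2(CPM + 1) in untreated pair 5, and the next was 2.95. The values of Treml1 (3.37) and Pf4 (1.42) in the same pair were the 1 non-zero value in 10. For Vwf untreated pair 3 was at 2.43 and the next pair at 0.35. Chance gives such a gap in about 1 of 20 groups for normally distributed values, and genes that are 0 in most pairs give it more readily. Pair 5 had 648110 and 405058 counts, fewer than most, and its Gp9, Itga2b and F2r means were the highest of the untreated pairs without standing apart. The groups of 13 dexamethasone pairs were not examined this way.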

How the results depend on the processing

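The main counts of libraries and pairs stayed within 1.5 times: at least 1 CPM, at least 50 CPM, at least 5 counts and thinning to 200000 counts moved the libraries with a member (38) to between 34 and 42, those with at least 3 members (17) to between 15 and 19, and the shared detections (31) to between 25 and 40. Libraries with Vwf numbered 1 at 50 CPM, against 4, and with Pf4 1 at 1 CPM, against 0. The number of genes called for dexamethasone was 0 in the main setting, 11 with RLE scaling, 11 with total counts, 66 with DESeq2 and 71 with all 26 pairs. Leaving out 1 pair gave 0 to 22, with 8, 12, 22, 7, 11 and 20 without untreated pairs 2, 8, 9, 10, 11 and 13. No member was called in any of these settings or without a filter. Founder calls numbered 828 with limma-trend and 67 within index columns.

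The sign of several fold changes turned, none of them called. Itga2b was at -0.16 with RLE scaling and with DESeq2, -0.18 with total counts, -0.086 with filterByExpr, -0.099 with no filter, -0.20 with limma-trend, -0.016 with the index column set as covariate, -0.15 in columns 1 to 4, -0.019 in columns 5 to 7 and -0.41 without pairs lacking Gata1, an alternative chosen after seeing the data. Gp9 was at -0.12 with limma-trend and -0.52 in columns 1 to 4. Gp5 was at -0.068 with limma-trend and -0.16 with the covariate. With DESeq2 Gp9 was at 4.10 (unadjusted p = 0.0432, adjusted p = 0.9995) and Vwf at 2.12. Vwf was at -0.12 with the covariate and -3.52 with all 26 pairs, which adds untreated pair 12, where 1 library held 827 Vwf reads. Leaving out 1 pair gave -0.68 to 0.81 for Itga2b, -0.18 to 2.11 for Gp9, -0.62 to 0.95 for Gp5, -0.037 to 0.23 for Vwf, 0.56 to 1.38 for F2r, 0.71 to 2.67 for Gp1bb and 1.56 (without dexamethasone pair 12) to 4.55 (without untreated pair 13, adjusted p = 0.885 by edgeR) for Rab27b. The other causes were not tested.

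With the pair number as a replicate block Gp9 was at -2.34 and Gp5 at -0.14, and 0 of 10111 genes were called. Same-numbered pairs of both treatments correlated at -0.14 to 0.20, over 0.1 for 2 of 10 numbers. Differently numbered pairs were not correlated, so these values cannot decide whether the numbers pair the samples. The labels number the pairs within each treatment, and the main fit used no block. The interaction of dexamethasone with the index column sets was called for 0 genes. Single cells limit all results: a member under 10 CPM may still be transcribed.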
